A study of Rattus norvegicus with 23 samples.

Results

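The comparison described here is that of rat myocardium after a myocardial infarction followed by implantation of a device, against myocardium after the infarction alone. Both were taken 6 weeks after operation, and the group labels do not say from which operation the weeks count in the device group. The comparison covers all 11283 genes of the authors' deposited table for that time point, which sets the mean of each group side by side. Behind the means stand 11 of the study's 23 libraries. The animals were Sprague-Dawley rats whose left coronary artery had been tied off through a left thoracotomy. In the group MI+TRD (5 libraries) a second operation then implanted a device that the labels call TRD and do not describe further. For the group MI (6 libraries) the labels name the infarct operation only. The 12 other libraries are 6 of MI+TRD and 6 of MI taken at 12 weeks. Both groups therefore carry the infarct, and the labels name no sham-operated or unoperated heart, no age, and no second operation without a device among the MI rats, so device and second operation cannot be told apart. Nor do the labels say which zone of the ventricle was cut, or whether each library is a separate rat, so a p-value here reflects the spread among the samples only, which may in part be technical.

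Every group mean, p-value and false discovery rate at 6 weeks comes from the authors' deposited table, in which the means are in normalized counts, called units below. A level can be compared between groups for 1 gene but not between genes, since no correction for gene length is stated. The size of a difference is the log2 of the MI+TRD mean over the MI mean minus the same for the median gene, called the centred log2 ratio, and positive values are higher in MI+TRD. The median gene itself stood at -0.039 before centring, so centring changed little. No values per library at 6 weeks were used here, so no SD, no test of differences between genes and no check of single libraries can be given for that time point. In myocardial tissue, fewer cells of a type and less RNA per cell cannot be told apart, which holds for every gene group below.

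After an infarct, dead muscle is cleared by macrophages that arise from resident cells and from blood monocytes, and is replaced by a scar. The scar is laid down by activated fibroblasts, which secrete fibrillar collagens, fibronectin and matricellular proteins such as periostin, while metalloproteinases cut and remodel the matrix. Surviving muscle is known to reactivate fetal stress genes such as the natriuretic peptides, and capillaries in and around the scar are remodelled. The gene groups below follow that order: inflammatory cells, scar matrix and the enzymes that cut it, secreted defence proteins, vessels, and heart muscle.

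No gene passed the authors' step-up false discovery rate at 0.05 at 6 weeks, that is 0% of the 11283 genes. The lowest rate in the authors' deposited table was 0.0989, for C1qtnf3, and the next was 0.286, shared by 33 genes. An unadjusted (nominal) p below 0.05 was recorded for 961 genes, against 564 for a table without any difference. Of these, 499 (4.42% of all genes) were higher in MI+TRD and 462 (4.09%) were lower. Genes of the higher set differed by more than those of the lower set. The median gene among the 499 had an MI+TRD mean 2.24 times the MI mean, whereas among the 462 the MI+TRD mean was 0.693 times the MI mean. More than 2-fold above the median gene stood 466 genes and more than 2-fold below it 63, of which 291 and 22 had a nominal p below 0.05. Because nothing passed the false discovery rate, the words higher and lower below describe group means, and the nominal p is given as a description. Counts of list members below are to be read beside the shares over all genes, 4.42% higher and 4.09% lower.

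**Figure D1:**
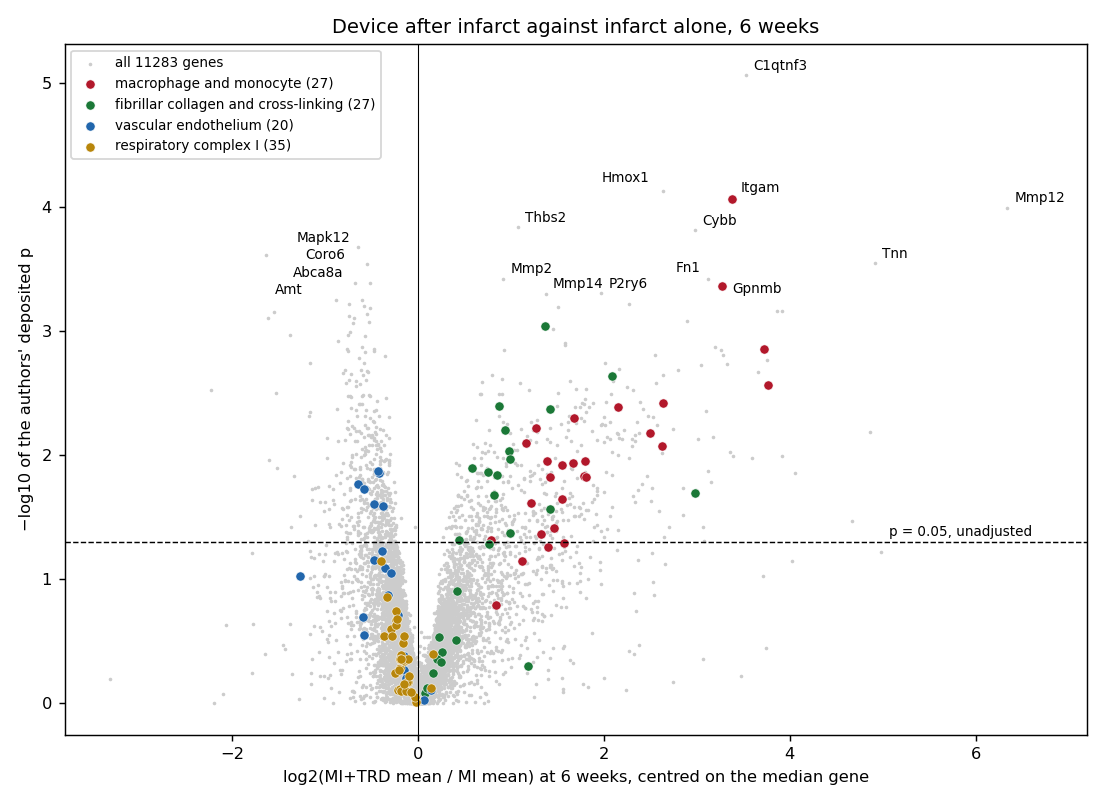
Each point is a gene at 6 weeks, placed by its centred log2 ratio of the MI+TRD mean to the MI mean (x) and by the negative log10 of the authors' nominal p (y), with members of 4 gene lists in colour. Macrophage genes (red) and collagen genes (green) lie to the right, vascular endothelial genes (blue) lie mostly to the left, and genes of respiratory complex I (ochre) stay near the centre, all below the dashed line at a nominal p of 0.05.

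Among genes with a level of at least 1 unit in a group, the 12 higher genes with the smallest p were C1qtnf3, Hmox1, Itgam, Mmp12, Thbs2, Cybb, Tnn, Mmp2, Fn1, Gpnmb, P2ry6 and Mmp14. By role they fall into myeloid cell genes (Itgam, Cybb, Gpnmb, P2ry6, Mmp12), matrix proteins (Thbs2, Tnn, Fn1), gelatinase A and the membrane protease that activates it (Mmp2, Mmp14), haem breakdown (Hmox1) and a secreted protein of the C1q/TNF-related family (C1qtnf3). Of these 12 genes, 6 had a promoter entry in the RefSeq table of the rat build GRCr8, from 250 bases before to 50 bases after the gene start. The 3 promoters that hold the letters TGANTCA are shown because 3 of the myeloid genes named above share them. The pattern is wider than TGA(C/G)TCA, the core to which AP-1 (Fos and Jun) factors bind. Mmp12 and Gpnmb hold TGAGTCA, which is that core, while Cybb holds TGAATCA, which is not. The counts of TGANTCA below therefore include strings outside the core. The capitals mark TGANTCA in each sequence and, in Gpnmb, also the letters TCATGTGA, a recognition sequence of the MiT family of lysosome regulators, which reads TCACATGA on the strand printed. The sequences run 5′ to 3′ on the gene's strand, at chr8:12866402-12866701 (plus strand) for Mmp12, macrophage elastase, chrX:16065016-16065315 (minus strand) for Cybb, the catalytic subunit of the phagocyte oxidase, and chr4:79340878-79341177 (plus strand) for Gpnmb, a lysosomal membrane glycoprotein.
Mmp12: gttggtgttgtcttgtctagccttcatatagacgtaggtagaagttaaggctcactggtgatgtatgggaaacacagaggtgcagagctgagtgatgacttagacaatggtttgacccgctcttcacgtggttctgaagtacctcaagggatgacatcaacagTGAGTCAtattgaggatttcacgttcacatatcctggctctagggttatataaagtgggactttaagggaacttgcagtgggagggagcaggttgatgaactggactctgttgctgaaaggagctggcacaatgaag
Cybb: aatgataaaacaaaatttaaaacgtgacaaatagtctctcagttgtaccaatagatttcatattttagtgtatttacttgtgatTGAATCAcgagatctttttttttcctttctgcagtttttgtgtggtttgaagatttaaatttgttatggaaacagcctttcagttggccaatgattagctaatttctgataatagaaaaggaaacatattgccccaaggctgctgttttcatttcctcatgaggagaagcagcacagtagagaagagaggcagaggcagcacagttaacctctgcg
Gpnmb: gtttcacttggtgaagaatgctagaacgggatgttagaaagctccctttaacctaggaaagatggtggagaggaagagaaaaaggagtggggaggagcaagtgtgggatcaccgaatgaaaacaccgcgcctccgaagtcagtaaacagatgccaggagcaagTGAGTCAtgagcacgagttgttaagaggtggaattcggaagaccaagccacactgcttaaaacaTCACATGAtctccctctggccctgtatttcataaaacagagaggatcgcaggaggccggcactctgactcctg
Counted from the gene start, the match begins at position -87 in Mmp12 and in Gpnmb and at -166 in Cybb. Searched on both strands, TGANTCA occurred in 2453 of the 33469 promoters of the table (7.33%). Counted by gene instead of by promoter, it occurred for 3 of 20 genes of the macrophage list (15%) and 3 of 6 named genes (50%). Gpnmb, which holds the string, and Itgam, which does not, are in both sets. The 6 genes were named for their small p in these data, and the promoters shown were picked for the string. These shares are therefore a description, and enrichment was not tested. TCATGTGA occurred in 1.16% of all promoters and for 2 of 20 genes of the macrophage list. The C1qtnf3, Itgam and Tnn promoters held neither string. A match describes letters in this window and not a site in use.

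Macrophage and monocyte genes were higher as a group. All 27 measured members of the list stood above the median gene, with centred log2 ratios between 0.78 and 3.77 and a median of 1.57, while the quartiles over all genes were -0.15 and 0.17. Of the 27, the authors' deposited table gave 23 as higher at a nominal p below 0.05 and none as lower, against 4.42% higher over all genes. This list, like the other lists below, was drawn up with earlier results of these data known, so such counts only describe these data. Summed over the list, the means came to 1536 units in MI+TRD and 475 units in MI. Itgam, which encodes CD11b of the adhesion receptor that myeloid cells use to enter tissue, had 10.9 units in MI+TRD and 1.07 units in MI (centred log2 ratio 3.38, the authors' p = 8.69e-05). Gpnmb had 89.6 units in MI+TRD and 9.58 units in MI (3.26, the authors' p = 0.000434). Spp1, the secreted adhesion protein osteopontin, had 106 units in MI+TRD and 8.23 units in MI (3.72, the authors' p = 0.0014). Fcgr2b, the inhibitory Fc gamma receptor, had 9.20 units in MI+TRD and 0.695 units in MI (3.77, the authors' p = 0.00275).

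The rest of the macrophage list spanned several roles. Lyz2, the lysozyme of phagocytes, had 508 units in MI+TRD and 84.4 units in MI (2.63). Trem2, a lipid-sensing receptor of scar-associated macrophages, had 9.39 units in MI+TRD and 1.57 units in MI (2.62). Cd68, a lysosomal glycoprotein used as a general macrophage stain, had 16.4 units in MI+TRD and 3.0 units in MI (2.49). The list also holds genes of resident macrophages. Mrc1, the mannose receptor, had 24.4 units in MI+TRD and 11.2 units in MI (1.16), and Csf1r, the receptor for the macrophage growth factor, had 44.2 units in MI+TRD and 18.9 units in MI (1.27), per the authors' deposited table. Folr2, a folate receptor of resident macrophages, stood at 1.80. The 4 members with a nominal p of 0.05 or more were Cx3cr1, Aif1, Cd163 and Ptprc. Ptprc, the CD45 antigen carried by all white blood cells, had 12.9 units in MI+TRD and 7.39 units in MI (0.84, the authors' p = 0.161). Ccr2, Ms4a7 and Timd4 were listed but had no entry in the table.

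Other white cells were measured less fully. Of 12 neutrophil and mast cell genes all stood above the median gene (median 1.2), and 3 were higher at a nominal p below 0.05. These were Mmp9, gelatinase B, with 3.22 units in MI+TRD and 0.114 units in MI, Csf3r, with 1.49 units in MI+TRD and 0.507 units in MI, and Il1r2, with 0.503 units in MI+TRD and 0.205 units in MI. Their levels lie close to the bottom of the authors' deposited table, whose lowest group mean is 0.0423 units over the tables of both time points. Among 14 T and NK cell genes the median was -0.05 and only Cd4 had a nominal p below 0.05, with 16.3 units in MI+TRD and 6.65 units in MI. Cd4 is also expressed by rat macrophages. Of 13 B and plasma cell genes listed, 4 were measured and none had a nominal p below 0.05.

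Genes of the lysosome were also higher, and which cells of the tissue they came from was not tested. A list of 53 lysosomal genes, drawn up after values of these data had been seen, had a median of 0.33 with 22 higher and 1 lower at a nominal p below 0.05. Slc11a1, a metal transporter of the phagosome membrane, had 5.04 units in MI+TRD and 0.699 units in MI (2.89, the authors' p = 0.000837). Ctsb, the protease cathepsin B, had 346 units in MI+TRD and 184 units in MI (0.95), and Ctsk, cathepsin K, which degrades collagen, had 16.4 units in MI+TRD and 6.27 units in MI (1.43). The member lower in MI+TRD was Atp6v0a1, a subunit of the proton pump, with 59.5 units in MI+TRD and 76.3 units in MI (-0.32). In a further list of 24 genes of lipid-handling macrophages, also drawn up after values were seen, the median was 0.66, with 13 higher and 1 lower. Its members Msr1 (2.56) and Olr1 (2.22), both receptors that take up oxidised lipid, and Abcg1 (0.77), which exports cholesterol, were among those higher in the authors' deposited table.

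Iron and haem handling showed 4 of 20 genes higher at a nominal p below 0.05 and none lower, against 4.42% higher over all genes. The list median was 0.15. Hmox1, the inducible enzyme that opens the haem ring and frees its iron, had 41.8 units in MI+TRD and 6.92 units in MI (2.64, the authors' p = 7.43e-05). Ftl1, the ferritin light chain that stores iron, had 318 units in MI+TRD and 134 units in MI (1.28). Cp, ceruloplasmin, which oxidises iron for export, had 22.1 units in MI+TRD and 9.72 units in MI (1.23), and Tf, transferrin, had 49.2 units in MI+TRD and 23.5 units in MI (1.11). Among 34 antioxidant genes (median 0.14), Hmox1, Cybb and Srxn1 were higher at a nominal p below 0.05 and none was lower. The share higher over all genes was 4.42%. Cybb had 12.6 units in MI+TRD and 1.64 units in MI (2.98, the authors' p = 0.000155). The list of 14 erythroid and platelet genes had a median of -0.33 and no member with a nominal p below 0.05. Its alpha-globin gene Hba2 had 28.5 units in MI+TRD and 291 units in MI with a deposited p of 0.632.

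**Figure D2:**
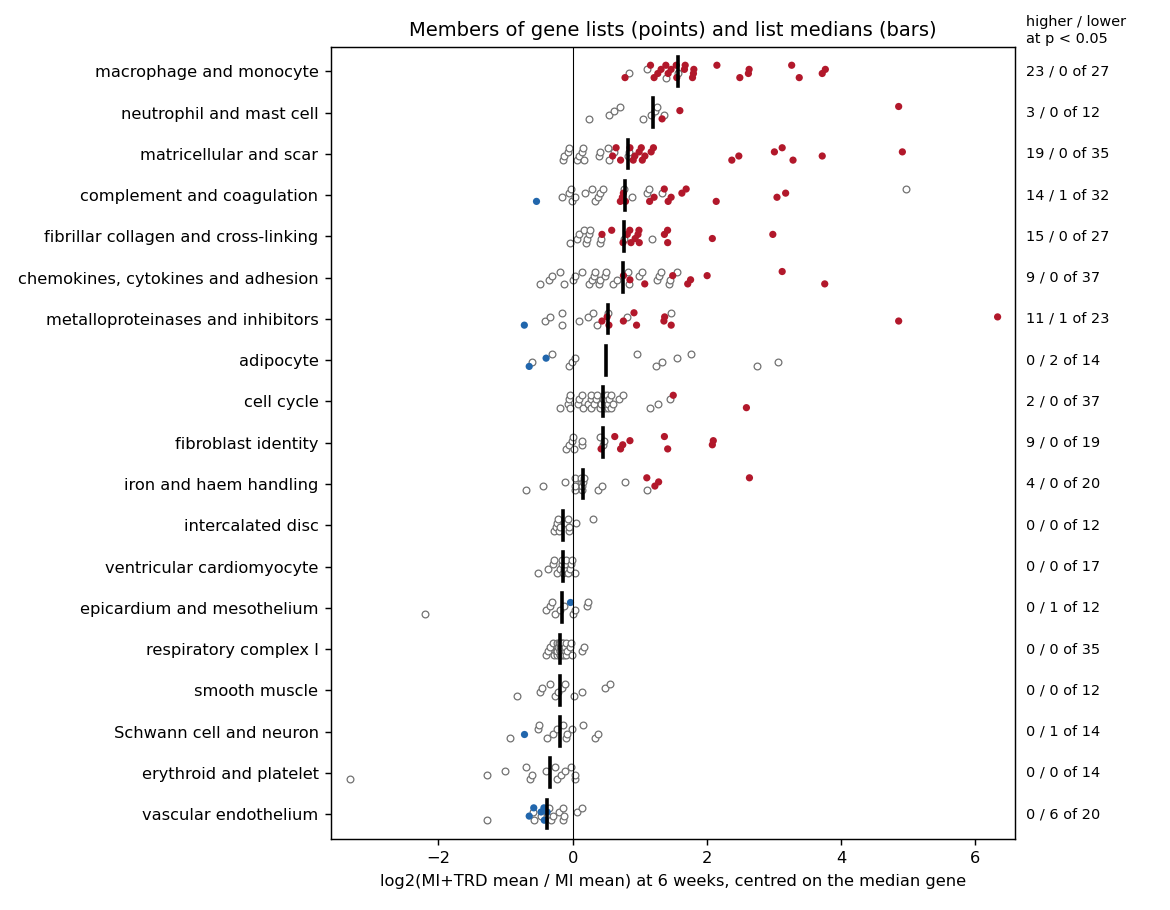
Each row is a gene list and each point a measured member at 6 weeks, placed by its centred log2 ratio of the MI+TRD mean to the MI mean, with a bar at the list median; red and blue points are higher and lower at a nominal p below 0.05, as counted at the right. The macrophage list (median 1.57) lies wholly to the right of the median gene, the matrix, complement and chemokine lists lie mostly to the right, and the lists of ventricular muscle, the intercalated disc and respiratory complex I stay close to 0.

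Fibrillar collagens and the enzymes that link them made up the second broad group. Of 27 measured genes 26 stood above the median gene, the list median was 0.76, and 15 were higher and none lower at a nominal p below 0.05. Col3a1, the chain of type III collagen, had 1546 units in MI+TRD and 615 units in MI (1.37, the authors' p = 0.000921). Col1a1 had 945 units in MI+TRD and 229 units in MI (2.08, the authors' p = 0.00231), and Col1a2, the second chain of type I collagen, had 721 units in MI+TRD and 278 units in MI (1.42, the authors' p = 0.00429). Col5a1, a minor fibril chain, had 78.9 units in MI+TRD and 44.4 units in MI (0.87, the authors' p = 0.004). The cross-linking enzymes Lox (1.41), Loxl1 (0.99) and Loxl2 (0.85) and the lysyl hydroxylase Plod2 (0.99) were likewise higher in the authors' deposited table, each with a nominal p below 0.05. Basement membrane genes were not: of 20 genes in that list (median 0.01), none was higher and 1 was lower at a nominal p below 0.05. That gene was Agrn, agrin, with 101 units in MI+TRD and 129 units in MI (-0.32).

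Of 35 matricellular and scar genes, 31 stood above the median gene (median 0.82), and 19 were higher and none lower at a nominal p below 0.05. Fn1, fibronectin, had 494 units in MI+TRD and 58.2 units in MI (3.12, the authors' p = 0.000383). Thbs2, thrombospondin 2, which shapes collagen fibrils, had 54.0 units in MI+TRD and 26.3 units in MI (1.08, the authors' p = 0.000146). Postn, periostin, a marker of activated cardiac fibroblasts, had 75.1 units in MI+TRD and 7.92 units in MI (3.28, the authors' p = 0.00156). Tnn, tenascin N, had 2.40 units in MI+TRD and 0.0819 units in MI (4.91, the authors' p = 0.000284), and the MI mean was 1.94 times the lowest group mean in the tables, so its ratio rests on a level near the floor. Among the other members, Eln, elastin, had 146 units in MI+TRD and 73.8 units in MI (1.02), and Fbn1, fibrillin 1, had 104 units in MI+TRD and 56.4 units in MI (0.93). C1qtnf3 was also near the floor, with 1.66 units in MI+TRD and 0.148 units in MI (3.53, the authors' p = 8.76e-06, deposited false discovery rate 0.0989).

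Fibroblast identity genes had a median of 0.45 over 19 members, with 9 higher and none lower at a nominal p below 0.05. Col1a1, Col1a2 and Col3a1 above are 3 of the 9. Among the others, Thy1, a surface antigen of fibroblasts, had 13.4 units in MI+TRD and 3.22 units in MI (2.10), and Pdgfra, the growth factor receptor that defines the lineage, had 53.3 units in MI+TRD and 40.8 units in MI (0.42, the authors' p = 0.0142). The transcription factor Tcf21, held by resting cardiac fibroblasts, had 10.8 units in MI+TRD and 11.2 units in MI (0.00). Tgfb1, the ligand that activates fibroblasts, had 22.4 units in MI+TRD and 18.2 units in MI (0.34, the authors' p = 0.294). Of 27 genes of its signalling pathway 3 were higher and 1 lower at a nominal p below 0.05 (median 0.07). Over all genes 4.42% were higher and 4.09% lower.

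Enzymes that cut the matrix were higher together with it. Of 23 metalloproteinases and inhibitors 11 were higher and 1 was lower at a nominal p below 0.05, with a median of 0.52. Mmp12, macrophage elastase, had 11.0 units in MI+TRD and 0.140 units in MI (6.33, the authors' p = 0.000102), the highest centred log2 ratio of all 11283 genes. Its MI mean was 3.32 times the lowest group mean at 6 weeks, and with 1 unit added to both means the centred log2 ratio was 3.43. Mmp2, gelatinase A, had 168 units in MI+TRD and 91.8 units in MI (0.91, the authors' p = 0.000382). Mmp14 had 45.6 units in MI+TRD and 18.1 units in MI (1.37, the authors' p = 0.000502). The inhibitors were mixed. Timp4, an inhibitor known for its expression in the heart, was the lower gene of the list, with 26 units in MI+TRD and 43.9 units in MI (-0.72, the authors' p = 0.00338). Timp1 had 25.2 units in MI+TRD and 9.36 units in MI with a deposited p of 0.0564, and Timp2 had 149 units in MI+TRD and 107 units in MI (0.51).

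**Figure D3:**
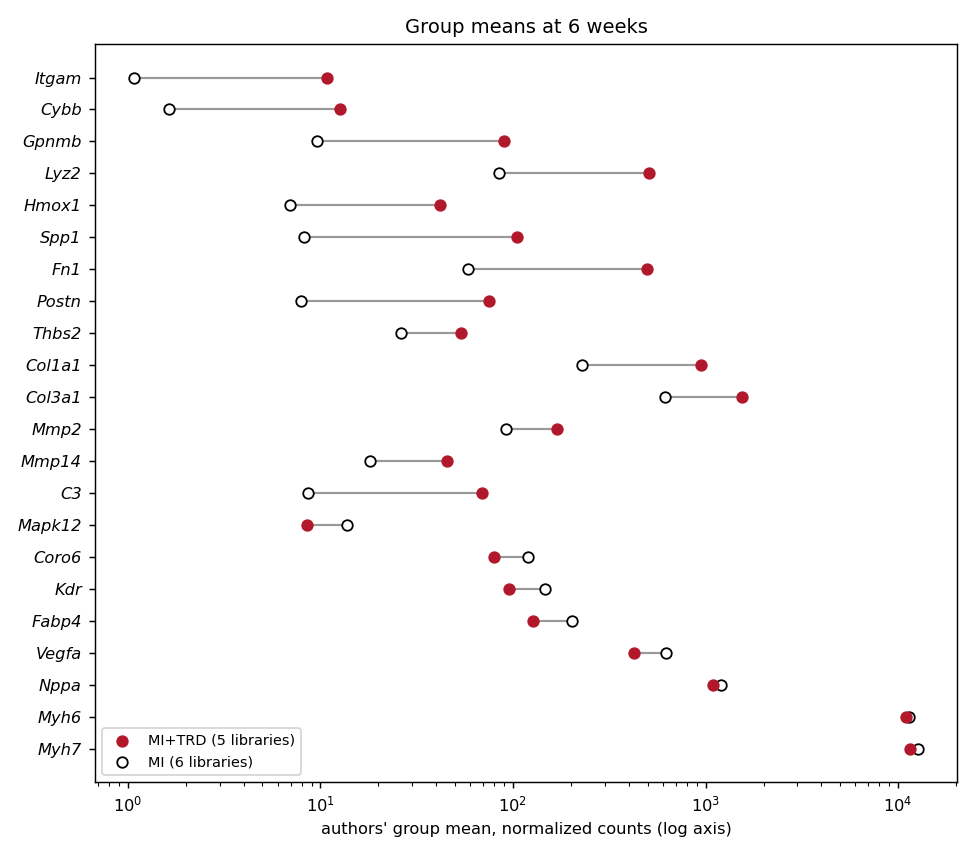
Group means of 22 genes at 6 weeks in normalized counts on a log axis, with MI+TRD as filled red points and MI as open points. The line between the 2 points of a gene is its difference: from Itgam to C3 the MI+TRD mean lies to the right, from Mapk12 to Vegfa it lies to the left, and for Nppa, Myh6 and Myh7 the 2 points nearly coincide.

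Complement and coagulation genes were higher in 14 cases and lower in 1 of 32 measured, with a median of 0.78, in the authors' deposited table at a nominal p below 0.05. The shares over all genes were 4.42% higher and 4.09% lower. C3, the central component that all activation routes reach, had 69.2 units in MI+TRD and 8.61 units in MI (3.05, the authors' p = 0.00187). C2, a protease of the classical route, had 42.9 units in MI+TRD and 13.6 units in MI (1.69, the authors' p = 0.0041). C5ar1, the receptor that draws leukocytes to cleaved C5, had 11.2 units in MI+TRD and 3.72 units in MI (1.63, the authors' p = 0.00488). F5, coagulation factor V, had 1.73 units in MI+TRD and 0.404 units in MI (2.14). The lower gene was F8, coagulation factor VIII, which endothelial cells make, with 38.4 units in MI+TRD and 57.3 units in MI (-0.54). The 3 chains of C1q stand in this list and in the macrophage list.

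Of 37 chemokines, cytokines and adhesion genes, 9 were higher and none lower at a nominal p below 0.05 (median 0.76). The chemokine Ccl9 had 2.30 units in MI+TRD and 0.175 units in MI (3.76, the authors' p = 0.00173). Il10, an anti-inflammatory cytokine, had 1.66 units in MI+TRD and 0.195 units in MI (3.12), Il18 had 1.11 units in MI+TRD and 0.346 units in MI (1.71), and the B cell attractant Cxcl13 had 2.90 units in MI+TRD and 0.742 units in MI (2.0). All 4 had MI means under 1 unit. With 1 unit added to both means the list median was 0.43, and the means summed over the list came to 571 units in MI+TRD and 533 units in MI, a ratio of 1.07. Of 21 antigen presentation genes (median 0.13), 7 were higher and none lower at a nominal p below 0.05. The 7 are known as genes of the class II route, and class I genes were not counted apart. RT1-DMb, which loads peptides on class II molecules, had 26.8 units in MI+TRD and 11.7 units in MI (1.23, the authors' p = 0.00634), its partner RT1-DMa stood at 1.65, the class II master regulator Ciita at 2.09 and the class II chain RT1-Da at 1.32. Of 31 interferon response genes (median -0.07), none was higher and Ifit2 and Rsad2 were lower, a count near the 4.09% lower over all genes. Rsad2 had 7.14 units in MI+TRD and 12.2 units in MI. Among 31 genes of JAK-STAT and NF-kappaB signalling 5 were higher and 1 was lower (median 0.13), against 4.42% and 4.09% over all genes. The decoy receptor osteoprotegerin, Tnfrsf11b, had 15.8 units in MI+TRD and 3.11 units in MI (2.38, the authors' p = 0.00375), and Il6r, the interleukin 6 receptor, had 28.7 units in MI+TRD and 16.9 units in MI (0.80).

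Vascular endothelial genes were lower. Of 20 measured, 18 stood below the median gene (median -0.38), and 6 were lower and none higher at a nominal p below 0.05, against 4.09% lower over all genes. Tek, the angiopoietin receptor, had 55.0 units in MI+TRD and 76.1 units in MI (-0.43, the authors' p = 0.0134). Emcn, endomucin, had 26.8 units in MI+TRD and 36.9 units in MI (-0.42, the authors' p = 0.0139). Fabp4, the fatty acid carrier of capillary endothelium, had 126 units in MI+TRD and 203 units in MI (-0.65, the authors' p = 0.017), and Kdr, the main receptor for VEGF, had 95.4 units in MI+TRD and 147 units in MI (-0.58, the authors' p = 0.0187). General markers were closer: Pecam1 had 111 units in MI+TRD and 139 units in MI (-0.29, the authors' p = 0.0895), and Cdh5 had 95.0 units in MI+TRD and 108 units in MI (-0.15, the authors' p = 0.413).

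Ligands and regulators of vessel growth were divided. Among 34 genes of angiogenesis and hypoxia 2 were higher and 6 lower at a nominal p below 0.05, with a median of -0.10. Of the 34 genes, 8 also stand in another list, among them Tek, already counted among the lower endothelial genes. Over all genes 4.42% were higher and 4.09% lower, so the count higher was near its share. Vegfa, the main angiogenic ligand, had 425 units in MI+TRD and 626 units in MI (-0.52, the authors' p = 0.0129). Hif1a, the oxygen-regulated transcription factor, had 25.5 units in MI+TRD and 16.9 units in MI (0.64, the authors' p = 0.00861), and the glucose transporter Slc2a1 had 14.9 units in MI+TRD and 8.37 units in MI (0.87, the authors' p = 0.00482), per the authors' deposited table. Plvap, a protein of fenestrated and venous endothelium, was higher, with 9.34 units in MI+TRD and 2.27 units in MI (2.08, the authors' p = 0.00951), while Lyve1 of lymphatic vessels and resident macrophages had 35 units in MI+TRD and 24.7 units in MI (0.55, the authors' p = 0.172).

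The 12 lower genes with the smallest p were Mapk12, Coro6, Abca8a, Afdn, Amt, Zfp775, Trim50, Usp28, Map4k2, Mapt, Ccdc77 and Ushbp1, all with a deposited false discovery rate of 0.286. Their centred log2 ratios lay between -0.88 and -0.51, a narrower and smaller range than the 0.91 to 6.33 of the 12 higher genes. Mapk12, the p38 gamma kinase of striated muscle, had 8.55 units in MI+TRD and 13.7 units in MI (-0.65, the authors' p = 0.000212). Coro6, a coronin of the actin skeleton, had 79.7 units in MI+TRD and 120 units in MI (-0.55, the authors' p = 0.000292). Abca8a, a lipid transporter, had 40.2 units in MI+TRD and 66.3 units in MI (-0.68, the authors' p = 0.000409). Amt, an enzyme of mitochondrial glycine cleavage, had 8.89 units in MI+TRD and 16.8 units in MI (-0.88, the authors' p = 0.000561). Mapt, the microtubule protein tau, had 52.0 units in MI+TRD and 78.3 units in MI (-0.55, the authors' p = 0.000731).

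Heart muscle genes stayed near the median gene. The labelled tissue was clear in both groups, since 17 of 18 ventricular cardiomyocyte markers were measured and Myh6, the alpha myosin heavy chain, had 10969 units in MI+TRD and 11357 units in MI (-0.01, the authors' p = 0.947). The list's median was -0.15, 16 of 17 members lay below the median gene, and none had a nominal p below 0.05. Myh7, the beta chain that is high in fetal and stressed muscle, had 11505 units in MI+TRD and 12716 units in MI (-0.11, the authors' p = 0.819). The stress hormones were close as well. Nppa had 1098 units in MI+TRD and 1198 units in MI (-0.09, the authors' p = 0.306), and Nppb had 210.0 units in MI+TRD and 217 units in MI (-0.01, the authors' p = 0.82). Acta1, Ankrd1, Atp2a2 and Pln lay between -0.22 and 0.00 with deposited p-values of 0.433 or more. In the sarcomere lists the gene with a nominal p below 0.05 was Myh7b, a slow myosin gene that hosts a microRNA, with 140 units in MI+TRD and 246 units in MI (-0.78, the authors' p = 0.00265). Kcnd3, a channel subunit of the transient outward current, had 12.8 units in MI+TRD and 22.9 units in MI (-0.80, the authors' p = 0.0274), and none of 27 calcium cycling genes had a nominal p below 0.05. These p-values do not show that the muscle genes were equal.

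Energy metabolism showed small differences. The 35 measured genes of respiratory complex I had a median of -0.19, with 33 below the median gene and none at a nominal p below 0.05. The 42 genes of complexes II to V had a median of -0.13, and 1 was lower (Cox4i2, with 7.41 units in MI+TRD and 10.2 units in MI). Among 39 genes of fatty acid uptake and oxidation (median 0.02), Lipe and Acot13 were lower and none was higher in the authors' deposited table, a count near the 4.09% lower over all genes. Lipe, the hormone-sensitive lipase, had 45.6 units in MI+TRD and 66.9 units in MI (-0.51, the authors' p = 0.00507). None of 74 cytosolic ribosomal protein genes (median 0.06) and none of 30 citrate cycle genes (median 0.07) had a nominal p below 0.05. Of 37 cell cycle genes 32 stood above the median gene (median 0.45), and Rrm2 and Cdkn2a were higher at a nominal p below 0.05, a count near the 4.42% higher over all genes. The means summed over the list came to 427 units in MI+TRD and 425 units in MI, a ratio of 1.01. Rrm2, a subunit of the enzyme that makes DNA precursors, had 4.07 units in MI+TRD and 1.48 units in MI (centred log2 ratio 1.5, the authors' p = 0.00401).

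Markers of other tissues were checked as well. Of 15 atrial genes, none was higher and 1 was lower at a nominal p below 0.05 (median -0.09, 7 above and 8 below the median gene). The lower gene was Nr2f1, a transcription factor of atrial identity, with 1.57 units in MI+TRD and 2.48 units in MI (-0.62, the authors' p = 0.0266). Among atrial light chain genes, Myl7 had 54.7 units in MI+TRD and 15.9 units in MI with a deposited p of 0.735, and Myl4 had 36.4 units in MI+TRD and 12.7 units in MI with a deposited p of 0.766. The epicardium list (12 of 16 measured) had a median of -0.16, with none higher and 1 lower at a nominal p below 0.05. The lower gene was Krt8, keratin 8, with 6.35 units in MI+TRD and 6.67 units in MI (-0.03, the authors' p = 0.0378). No other gene at 6 weeks had a nominal p below 0.05 with a log2 ratio within 0.1 of 0. The direction of Krt8 thus rests on 2 means that nearly coincide. The mesothelin gene Msln had 25.6 units in MI+TRD and 22.4 units in MI (0.23, the authors' p = 0.107). Of 13 lung epithelium genes 2 were measured and the surfactant genes had no entry. The 14 measured adipocyte genes had a median of 0.50 with none higher and 2 lower at a nominal p below 0.05, against 4.09% lower over all genes. The sums over the list were 1176 units in MI+TRD and 1257 units in MI. Over adipocyte members of at least 1 unit the median was -0.037. The part of any of these tissues in the results above was not tested.

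At 12 weeks the same comparison in other rats had another shape, and the authors' deposited table called 332 genes (2.94%) at a false discovery rate of 0.05, 5 of them higher and 327 lower. At a nominal p below 0.05, 239 genes (2.12%) were higher and 2482 (22%) lower. Of the 499 genes higher at 6 weeks, 427 stood above the median gene at 12 weeks and 18 were higher at a nominal p below 0.05, which is 3.61% of the 6-week genes and 7.53% of the 12-week genes. Of the 462 genes lower at 6 weeks, 300 stood below the median gene at 12 weeks and 159 were lower at a nominal p below 0.05, which is 34.4% of the 6-week genes and 6.41% of the 12-week genes. Across the 11283 genes the centred log2 ratios of the 2 time points had a Pearson r of 0.44 and a Spearman rho of 0.25, and genes are not independent replicates. The difference between the time points was not tested.

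The lists shifted in different directions between the time points. The macrophage list had a median of 1.57 at 6 weeks and 1.19 at 12 weeks, with 23 and 0 of 27 genes higher at a nominal p below 0.05. Fibrillar collagens had 0.76 at 6 weeks and 0.09 at 12 weeks, and matricellular genes 0.82 at 6 weeks and 0.35 at 12 weeks. Respiratory complex I had -0.19 at 6 weeks, with 0 of 35 genes lower, and -0.52 at 12 weeks, with 33 of 35 lower. Cytosolic ribosomal proteins had 0.06 at 6 weeks and -0.33 at 12 weeks, with 0 and 46 of 74 lower. These counts at a nominal p below 0.05 stand beside unlike shares over all genes. At 6 weeks 4.42% were higher and 4.09% lower, and at 12 weeks 2.12% were higher and 22% lower. The epicardium list had -0.16 at 6 weeks and 1.79 at 12 weeks. At 12 weeks the ratios also moved with the length of the gene on the genome, from a median of -0.32 for genes of up to 2 kb to 0.16 for genes over 100 kb, whereas at 6 weeks the same classes stood at 0.00 and -0.03. The part of gene length in the 12-week values was not tested.

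**Figure D4:**
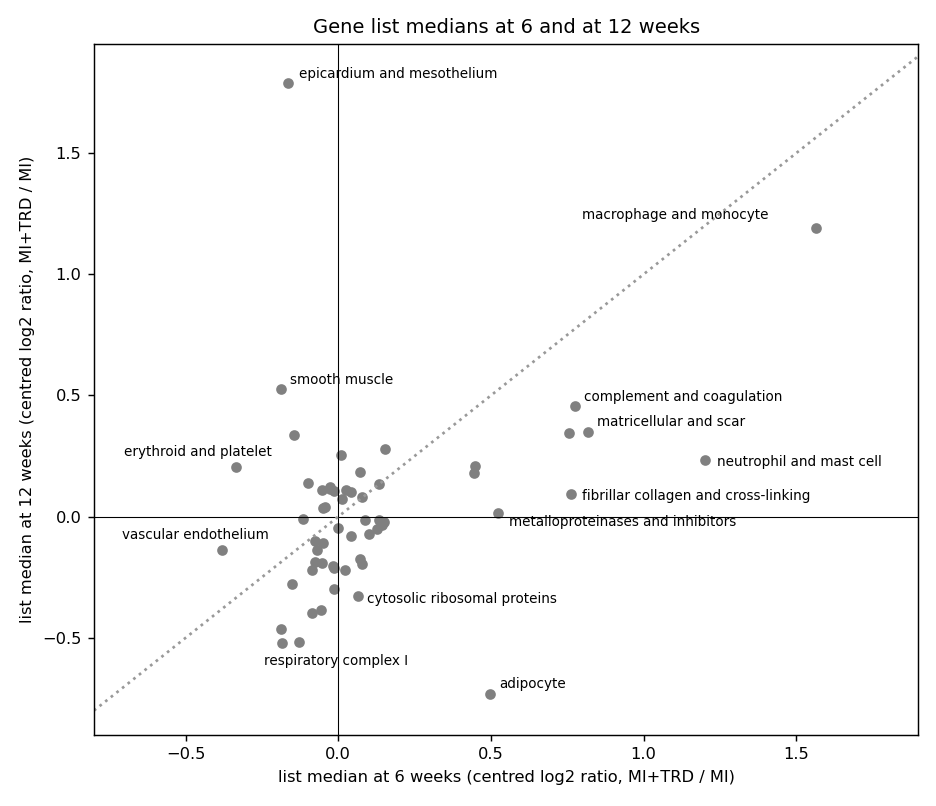
Each point is a gene list with at least 9 measured members, placed by its median centred log2 ratio of MI+TRD to MI at 6 weeks (x) and at 12 weeks (y), with the dotted line at equal values. Macrophage, collagen, matricellular and complement lists lie to the right, the respiratory and ribosomal lists lie below the horizontal line, and the epicardium list stands alone at the top.

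Values per library were available for 12 weeks, and in them 1 library set many of the MI+TRD means. Itgam had between 0.527 and 40.7 units in MI+TRD (median 0.748) and between 0.408 and 1.41 units in MI (median 0.910) at 12 weeks. Fn1 had between 21.4 and 1366 units in MI+TRD (median 35.7) and between 16.8 and 33.1 units in MI (median 23.6). Gpnmb had between 4.17 and 254.6 units in MI+TRD (median 8.05) and between 4.78 and 10.7 units in MI (median 10.5). In all 3 genes the groups overlapped, and 1 library, MI+TRD replicate 6, was far above the rest. That library was the highest MI+TRD library for all 27 macrophage genes and 22 of 27 collagen genes. Of 35 matricellular genes it was the highest for 14, as was MI+TRD replicate 5. On the values per library the macrophage median at 12 weeks was 1.27 with it and -0.07 without it, and the collagen median 0.11 with it and -0.13 without it. Whether single libraries carry the 6-week means in the same way was not tested. At 6 weeks 216 genes more than 2-fold from the median gene had a nominal p of 0.05 or more. Of the genes lower at both times, Mapk12 had a centred log2 ratio of -0.65 at 6 weeks and -0.58 at 12 weeks (the authors' p = 4.49e-05), and Coro6 had -0.55 at 6 weeks and -0.46 at 12 weeks. Tnfrsf11b was higher at both times, at 2.38 at 6 weeks and 3.03 at 12 weeks (the authors' p = 0.000656).

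**Figure D5:**
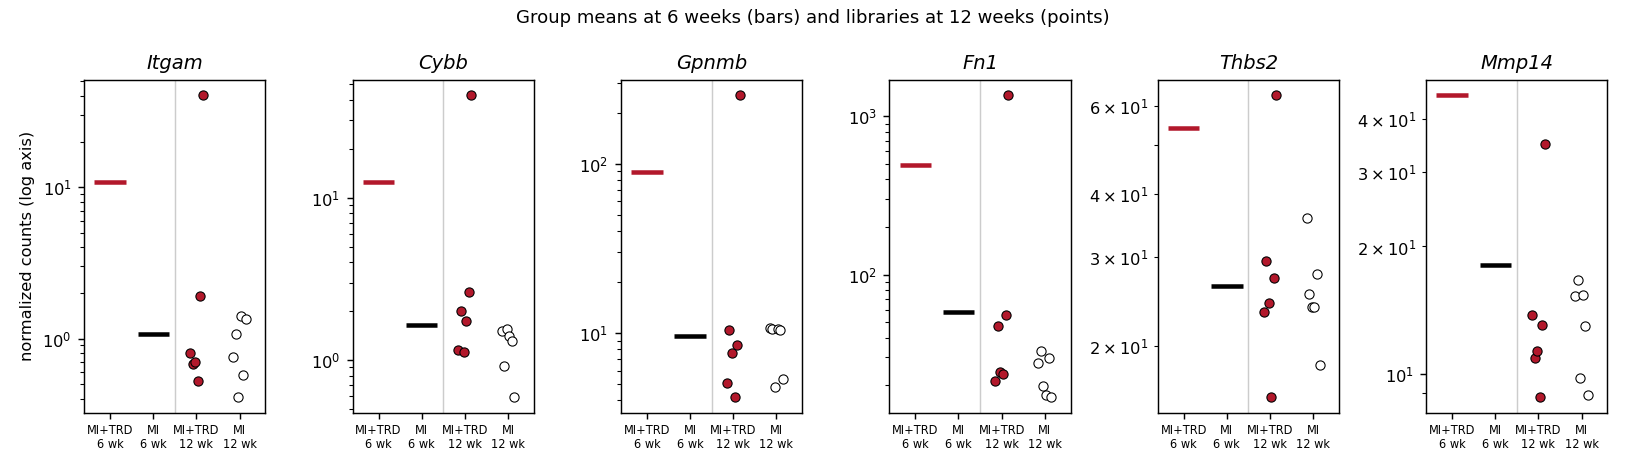
For 6 genes, the authors' group means at 6 weeks (bars) and the values of single libraries at 12 weeks (points), MI+TRD in red and left of MI at each time, in normalized counts on a log axis that differs between panels. At 12 weeks 1 MI+TRD library stands far above the others in Itgam, Cybb, Gpnmb and Fn1, at a level beyond the 6-week MI+TRD mean, and the rest lie near the MI libraries.

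Positions of the leading genes are given on rat build rn6, as the authors' table of values per library lists them. Hmox1 lies on chromosome 19 from 14508634 to 14515457, and Mmp2 on the same chromosome from 15542771 to 15570590. Itgam lies on chromosome 1 from 199495427 to 199545293 and Fn1 on chromosome 9 from 78900113 to 78969014. C1qtnf3 was among 560 genes with no position in that table.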

How the data were processed

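Polyadenylated RNA from snap-frozen myocardium was sequenced with Illumina chemistry according to the labels' protocols. Partek and the rat build rn6 appear in the submitters' processing notes. Which aligner, counting tool, annotation, scaling, strand setting and statistical model were used is not given in the sources used here. For each of 11283 genes at 6 and at 12 weeks the authors deposited a p-value and its step-up false discovery rate, which equalled the Benjamini-Hochberg adjustment of those p-values. They also deposited a linear ratio of MI+TRD to MI, a signed fold change written as a score, and the least-squares mean per group in normalized counts, a signal, per the file headers. For the 12 libraries at 12 weeks the authors deposited the normalized signal per gene and library for 10723 genes. Read totals per library at 6 weeks are not known, so no interval from depth is given. No column of values lacked a sample.

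From the 6-week means the log2 ratio of MI+TRD to MI was computed for each gene without a pseudocount and centred on the median gene. Calls are the authors' own, at 0.05, and no test was added, since no values per library at 6 weeks were used. The 61 gene lists, the members and the rule for named genes were chosen with earlier results of these data known, and 3 lists (lysosome, lipid-handling macrophage and integrins, the last with 3 of 17 genes higher, none lower and a median of 0.22) were added later. The rule took the 12 genes with the smallest p in each direction among genes of at least 1 unit in a group, 16 genes in any case and the first 4 of each list by p. Further list members, and those named for their roles, were picked after their values were seen. Lists were described by counts and medians without a set test. Promoters came from the RefSeq table for GRCr8, matched by symbol, and were searched with Python 3.11.15. The steps were tested on simulated means. Alternatives covered thresholds, centring, a minimum level, 1 added unit, gene length and overlap between lists. Genes that overlap or are near-identical copies, such as the class II chains, cannot be told apart without the counting rules.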

Additional observations from a re-analysis of the deposited data

Results flagged for a closer look

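At 12 weeks, 22 groups of 6 libraries were examined for a highest or lowest value standing apart from the rest by Dixon's criterion, taking the 12 genes higher at 6 weeks, 11 of which had values per library. Chance flags about 1 in 20 such groups, and 10 of the 22 stood apart. In 9 of them the library was MI+TRD replicate 6, which had 40.7 units of Itgam, 37.6 of Mmp12, 63.0 of Thbs2, 43.1 of Cybb, 1.63 of Tnn, 1366 of Fn1, 254.6 of Gpnmb, 4.65 of P2ry6 and 34.8 of Mmp14. The tenth was MI replicate 1, with 15 units of Hmox1. The 9 genes were measured in 1 library, so they are not 9 independent observations.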

How the results depend on the processing

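No gene was called at a false discovery rate of 0.01 or 0.05, with the direction centred, with a ratio of at least 1.5 required, or with the adjustment recomputed over the 10509 genes of at least 1 unit, where the lowest rate was 0.0921. At 0.1 the count of higher genes was 1 (C1qtnf3) and of lower genes 0. At an unadjusted p below 0.01, 152 genes were higher and 129 lower. The lists whose median lay at least 1.5-fold from the median gene numbered 8 as reported, 5 with 1 unit added to both means and 5 with the ratio of summed means, an alternative chosen after seeing the data, as was leaving out members of other lists. Among the 8 as reported are a list of Y-linked genes with only 2 measured and the lipid-handling macrophage list, which was added later. The adipocyte median of 0.50 became -0.037 over members of at least 1 unit and -0.057 as a ratio of summed means; the cause was not tested. Centring altered no list median by over 0.1. With 1 unit added to both means, 8 of 64 list medians moved by more than that. With the ratio of summed means 26 moved by more than that and 1 more changed sign. No paired analysis was possible because only group means were at hand for 6 weeks, and leaving out each library was not run for the same reason. Levels near the floor of the 6-week means limit the ratios of C1qtnf3, Mmp12 and Tnn.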

Other observations

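Genes outside the groups above gave a few further values in the authors' deposited table at 6 weeks. Sfrp4 and Sfrp2, secreted antagonists of Wnt ligands, were higher at a nominal p below 0.05, Sfrp4 with 2.02 units in MI+TRD and 0.364 units in MI (centred log2 ratio 2.51) and Sfrp2 with 16.8 units in MI+TRD and 5.46 units in MI (1.66), while the Wnt receptor gene Fzd8 was lower (-0.46). Mas1, the receptor for angiotensin 1-7, had 0.315 units in MI+TRD and 0.991 units in MI (-1.61, the authors' p = 0.00079). Igfbp4, which binds insulin-like growth factors, had 203 units in MI+TRD and 121 units in MI (0.78), and Irs2, an adaptor of the insulin receptor, had 95.7 units in MI+TRD and 57.7 units in MI (0.77). Chac1, a target of the unfolded protein response, had 0.919 units in MI+TRD and 0.212 units in MI (2.16, the authors' p = 0.00201). Zbtb16, a glucocorticoid-induced transcription factor, had 26.8 units in MI+TRD and 12.8 units in MI (1.10). Rgs2, a brake on G protein signalling, had 5.61 units in MI+TRD and 2.05 units in MI (1.49), while its relative Rgs4 stood at -0.44. None of 17 circadian clock genes and none of 32 immediate early genes had a nominal p below 0.05.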
